A study of Homo sapiens with 4 samples.

Results

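The genes expressed in an engineered prostate cancer tissue (EPCaT) whose gel held 3% polyethylene glycol diacrylate (PEGDA) were compared with those in the same tissue made without added PEGDA, which is the full range of PEGDA in these libraries. Genes were taken when they reached 1 CPM (counts per 1000000 after scaling of libraries by TMM) in either library, which gave 14380 of the 17791 genes in the deposited table. Of these, 318 reached 1 CPM only in the PF+3%PEGDA EPCaT, 523 only in the PF EPCaT and 13539 in both. The larger of the 2 values was 1.02 CPM in the gene just inside this limit and 0.959 CPM in the gene just outside it.

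Both tissues held PC-3 cells, a line from a bone metastasis of prostate cancer, and BJ-5ta cells, foreskin fibroblasts immortalised with telomerase, mixed at 5 to 1 in a gel of polyethylene glycol joined to fibrinogen (PF) and taken on day 15. The PF+3%PEGDA EPCaT was mixed from 88 volumes of PF and 12 of PEGDA, a crosslinker that per the labels was added to tune the mechanics of the gel, and the PF EPCaT had no added PEGDA. A PF+2%PEGDA EPCaT (92 volumes to 8) and a flat (2D) coculture of both lines are quoted below where they bear on a value. The day and the mixing ratio of the 2D coculture are not given in the sources used here. All groups share the same pair of cell lines, no sorting of cells is described, and RNA was pooled per the labels from several tissues of a kind. There was 1 library per group, so nothing below has a replicate check and no p-value is given.

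PF is a gel that cells can cut and remodel, because the fibrinogen carries adhesion sites and protease sites. PEGDA adds polymer chains without such sites, so a gel with more of it is known as stiffer and more tightly meshed. PC-3 cells are known as androgen-independent and lack the p53 protein and alpha-catenin, while fibroblasts such as BJ-5ta are known as makers of fibrillar collagen.

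A gene is called higher or lower below when its levels in the libraries differed at least 2-fold and the exact 95% interval of the ratio excluded 1. That interval covers counting error only, since the spread between cultures was not measured. Total counts were 13760301 with 3% PEGDA and 15687894 in the PF EPCaT, so that 1 count was worth 0.0731 CPM with 3% PEGDA and 0.0599 CPM in the PF EPCaT. By this rule 516 genes (3.59%) were higher and 1079 (7.50%) lower with 3% PEGDA, and 12726 genes (88.5%) lay within 2-fold. At least 4-fold, 83 were higher and 258 lower, and at least 8-fold, 16 were higher and 71 lower. The median log2 ratio over all 14380 genes was 0.0017. In the plot of level against ratio the calls spread over the whole range of levels, and 14.6% of genes with a mean up to 2 CPM were higher and 25.6% lower. Among the genes with a mean above 512 CPM, 7.98% were higher and 1.88% lower. Against the PF+2%PEGDA EPCaT, the PF+3%PEGDA EPCaT had 261 genes higher (1.82%) and 262 lower (1.82%). The gel with 2% PEGDA, set against the PF EPCaT, had 343 higher (2.39%) and 795 lower (5.53%). The comparisons against the PF EPCaT share its library.

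**Figure D1:**
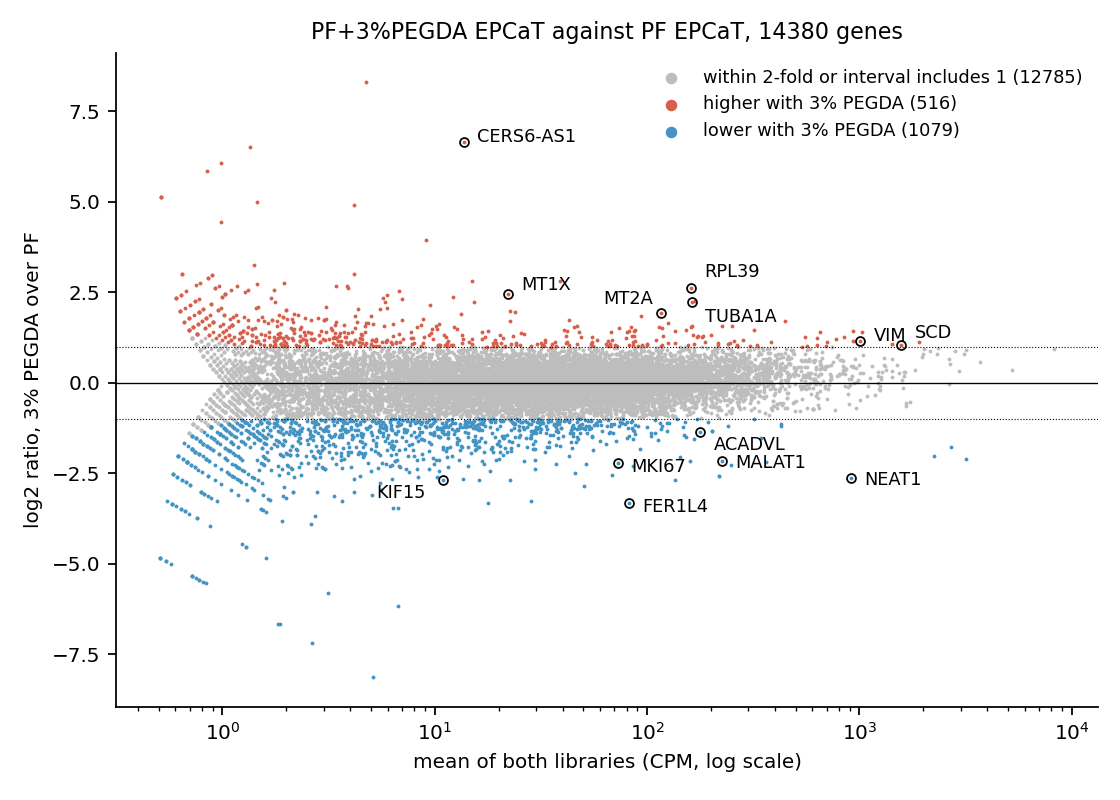
Each point is 1 of 14380 genes, with the mean CPM of both libraries on a log axis and the log2 ratio of the PF+3%PEGDA EPCaT over the PF EPCaT on the other (prior count of 0.5, dotted lines at 2-fold). The 516 higher genes are red and the 1079 lower ones blue; NEAT1, with 251 CPM with 3% PEGDA against 1563 CPM in PF, is among the more abundant lower genes.

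The library of the PF EPCaT stood apart from those of the other gels in several classes of RNA. Genes of ribosomal RNA took 0.4998% of counts with 3% PEGDA and 1.52% in the PF EPCaT, with 0.489% with 2% PEGDA and 1.17% in 2D. NEAT1 and MALAT1, long RNAs that stay in the nucleus, took 0.0331% of counts with 3% PEGDA and 0.205% in the PF EPCaT, with 0.0319% in the PF+2%PEGDA EPCaT and 0.0198% in 2D. Genes of cytosolic ribosomal proteins took 3.90% with 3% PEGDA and 2.23% in the PF EPCaT, with 4.14% in the PF+2%PEGDA EPCaT and 4.50% in 2D. For this reason most results below are followed by the same quantity for the PF+3%PEGDA EPCaT over the PF+2%PEGDA EPCaT, which leaves the PF EPCaT out. With 1 library per group, the gel and whatever else differed between libraries cannot be told apart, and the part of these classes in the results was not tested.

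Of 95 measured genes of 3 lists of cell division, 51 were lower and 0 higher, against the backgrounds of 7.50% lower and 3.59% higher. Division genes are switched on late in the cell cycle. The DREAM and MuvB complexes control them in part through a short element, the cell cycle genes homology region (CHR). This element often lies near a CCAAT box. Ki-67 coats chromosomes in mitosis, the kinetochore ties each chromosome to the spindle, and kinesin motors build and move that spindle. MKI67, the gene of Ki-67 (GRCh38 chromosome 10, 128096659 to 128126423), had 25.8 CPM in the PF+3%PEGDA EPCaT, against 119 CPM in the PF EPCaT, and was 4.62-fold lower (95% interval 4.12 to 5.19). The PF+2%PEGDA EPCaT lay between them at 48.97 CPM and the 2D coculture below all 3 gels at 7.60 CPM.

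The 250 bases before the start of ASPM, CENPF and KIF14 are shown because these are the mitotic genes with the largest fold, among those lower with 3% PEGDA and with 1 listed start, that hold both elements (RefSeq, GRCh38.p14, written 5′ to 3′ along the gene, on the minus strand for ASPM and KIF14 and the plus strand for CENPF). Capitals mark CHR elements (TTTGAA or TTTAAA) and CCAAT boxes, searched on both strands.
ASPM (chr1:197146670-197146919): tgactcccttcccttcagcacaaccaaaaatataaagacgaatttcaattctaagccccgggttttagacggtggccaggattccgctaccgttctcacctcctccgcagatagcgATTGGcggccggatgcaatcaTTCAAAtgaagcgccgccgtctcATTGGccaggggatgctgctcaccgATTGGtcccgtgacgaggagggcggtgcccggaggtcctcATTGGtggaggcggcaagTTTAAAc
CENPF (chr1:214602945-214603194): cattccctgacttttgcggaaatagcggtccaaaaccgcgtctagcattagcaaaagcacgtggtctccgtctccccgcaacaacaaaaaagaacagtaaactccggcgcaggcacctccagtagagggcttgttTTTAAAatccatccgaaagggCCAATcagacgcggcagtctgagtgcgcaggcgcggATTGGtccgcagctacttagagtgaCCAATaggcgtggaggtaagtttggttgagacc
KIF14 (chr1:200620752-200621001): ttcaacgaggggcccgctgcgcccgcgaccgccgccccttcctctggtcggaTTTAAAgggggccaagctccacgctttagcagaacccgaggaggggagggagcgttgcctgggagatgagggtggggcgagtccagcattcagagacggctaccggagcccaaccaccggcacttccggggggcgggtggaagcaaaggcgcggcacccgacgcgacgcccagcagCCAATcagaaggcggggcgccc

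A search of all promoters with an entry gave 2539 of 16255 (15.6%) with a CHR element, 5330 (32.8%) with a CCAAT box and 922 (5.67%) with both. These came from 11153 of the 14380 genes, some with several starts. Among the 51 lower genes of the 3 mitotic lists below, 43 had 44 promoters, of which 27 (61.4%) held a CHR element, 31 (70.5%) a CCAAT box and 23 (52.3%) both. Over all 95 measured genes of these lists, 44 of 96 promoters (45.8%) held a CHR element, 65 (67.7%) a CCAAT box and 38 (39.6%) both. The share with a CCAAT box was thus near that of the lower genes. In the kinetochore list it was 46.7% for the lower genes and 63.0% for all members. A match is a string of letters and says nothing of binding.

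Of 28 mitotic kinesins and spindle genes, 20 were lower and 0 higher with 3% PEGDA. All 28 had a ratio below 1, with a median log2 ratio of -1.48. KIF15, a kinesin that keeps the spindle bipolar, had 2.93 CPM in the PF+3%PEGDA EPCaT, against 18.9 CPM in the PF EPCaT (6.47-fold lower, 4.65 to 9.24). ASPM, which focuses spindle poles, had 3.80 CPM with 3% PEGDA, against 19.2 CPM in PF (5.06-fold, 3.76 to 6.92). KIF14, a kinesin of the last step of division, had 5.92 CPM with 3% PEGDA, against 28.2 CPM in PF (4.77-fold, 3.76 to 6.11). KIF20B, KIF18B and DLGAP5, further motors and a microtubule binder of the mitotic spindle, were 4.45-, 3.76- and 3.53-fold lower. Without the PF EPCaT the direction was the same: against 2% PEGDA, 11 of the 28 were lower and 0 higher, with a median of -0.94.

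Of 29 kinetochore and spindle checkpoint genes, 17 were lower and 0 higher, with a median of -1.15. CENPE, the kinesin of the kinetochore, had 3.22 CPM in the PF+3%PEGDA EPCaT, against 17.7 CPM in the PF EPCaT (5.51-fold lower, 4.01 to 7.75). CENPF, a large protein of the outer kinetochore, had 17.9 CPM with 3% PEGDA, against 85.4 CPM in PF (4.76-fold, 4.16 to 5.48). SKA3, SPC24, KNL1 and BUB1B, which bind microtubules or hold back separation until they are bound, were 3.35- to 4.53-fold lower. Against 2% PEGDA 4 of the 29 were lower and 0 higher (median -0.29).

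Among 38 cyclins, mitotic kinases and their controls, 14 were lower and 0 higher (median -0.85), and against 2% PEGDA 6 were lower and 0 higher (median -0.64). ESPL1, the protease separase that parts sister chromatids, had 7.83 CPM with 3% PEGDA, against 29.7 CPM in PF (3.80-fold lower, 3.08 to 4.73). The transcription factors of the division programme E2F2, E2F8 and FOXM1 were 4.04-, 2.72- and 2.27-fold lower, and CCNE2, the gene of cyclin E2, 3.69-fold. CCND1, the gene of cyclin D1 that answers growth signals before division starts, did not pass the rule, at 629.9 CPM with 3% PEGDA against 588 CPM in PF.

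Of 42 genes of the replication machinery 11 were lower and 0 higher (median -0.65, and -0.36 against 2% PEGDA, where 2 were lower). CLSPN, an adaptor that signals stalled forks, had 4.39 CPM with 3% PEGDA, against 18.5 CPM in PF (4.21-fold lower, 3.18 to 5.64). MCM10, which helps start forks, and POLE, the leading-strand polymerase, were 3.65- and 3.10-fold lower. Of 30 genes of homologous recombination and Fanconi repair 16 were lower and 0 higher (median -1.09, and -0.42 against 2% PEGDA, where 3 were lower), and all 30 had a ratio below 1. POLQ, the polymerase of a backup end-joining route, had 3.00 CPM with 3% PEGDA, against 15.7 CPM in PF (5.24-fold lower, 3.76 to 7.47). BRCA2, FANCA and BLM, which load recombinase, repair crosslinks and unwind joined DNA, were 4.39-, 4.35- and 4.23-fold lower. Among enzymes of nucleotide synthesis 0 of 24 passed the rule (median -0.24). Of 23 replication-dependent histone genes measured (58 listed), 1 was higher (4.35%) and 2 were lower (8.70%), against 3.59% and 7.50% of all genes. The median of the histone genes was 0.14, with 14 ratios above 1 and 9 below. Among condensins, cohesins, topoisomerase II and Ki-67, 5 of 20 were lower (median -0.63), and 0 of 20 against 2% PEGDA. They included TOP2A, which untangles chromosomes, at 3.21-fold (2.88 to 3.58).

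The median exon number was 19 for the kinesin list, 11 for the kinetochore list and 9 for the cyclin list, against 8 over all genes, and from 4 to 5 exons upward the median ratio over all genes was lower in each bin of more exons. With the trend of length, GC content and exon number removed, 19 of the 28 kinesins and spindle genes, 13 of the 29 kinetochore genes, 12 of the 38 cyclins and kinases, 12 of the 30 repair genes and 7 of the 42 replication genes passed the rule as lower. In the list of chromosome structure (condensins, cohesins, topoisomerase II and Ki-67) 2 of 20 then passed, and the median was -0.28. POLE, among the genes named, was no longer past the rule in that setting. BUB1B, KIF15, CCNE2, FOXM1 and FANCA overlap another annotated gene. The strand setting of the counts is not stated, so reads from such partners cannot be told apart here. In these bulk samples, fewer dividing cells and less RNA per dividing cell cannot be told apart either.

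**Figure D2:**
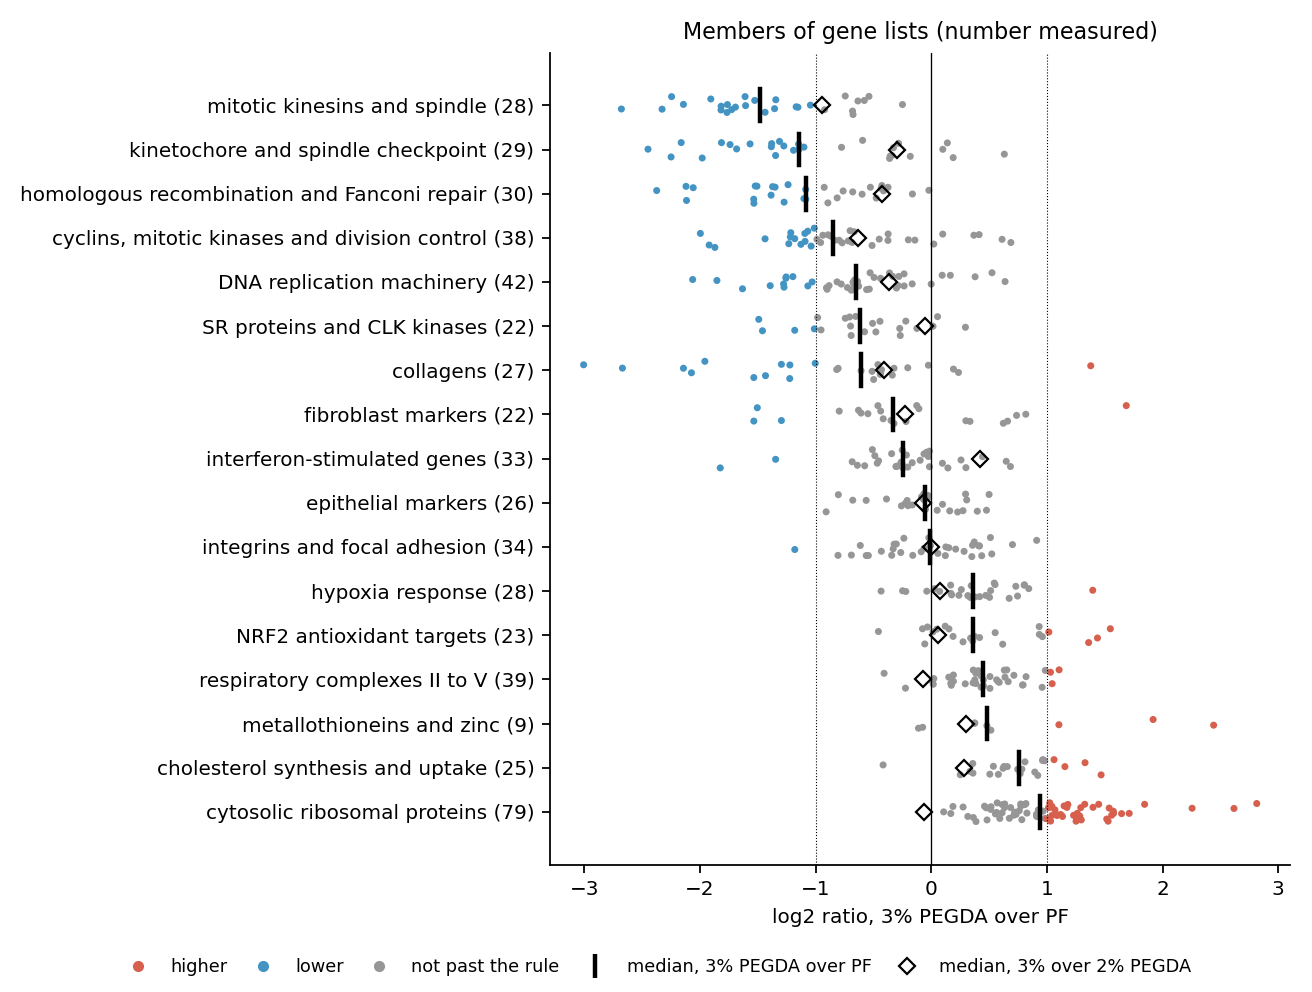
Points are the measured members of the gene lists named at the left, placed by the log2 ratio of the PF+3%PEGDA EPCaT over the PF EPCaT, with bars for the median and diamonds for the median over the PF+2%PEGDA EPCaT. Division and repair lists lie left of 0 in both, with medians of -0.65 to -1.48 for 3% PEGDA over PF, while the median of ribosomal proteins is 0.94 over the PF EPCaT and -0.06 over 2% PEGDA.

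Cytosolic ribosomal proteins build the ribosome, their messages are short and abundant, and they are known for a pyrimidine tract at the start that ties their translation to growth signals. Of 79 measured, 37 were higher with 3% PEGDA and 0 lower, against a background of 3.59%, and all 79 had a ratio above 1 (median log2 ratio 0.94, range 0.11 to 2.81). RPL39, a very small protein of the large subunit, had 276 CPM in the PF+3%PEGDA EPCaT, against 44.9 CPM in the PF EPCaT (6.14-fold higher, 5.67 to 6.65). RPS27 had 279 CPM with 3% PEGDA, against 58.4 CPM in PF (4.77-fold, 4.45 to 5.13). RPLP0, part of the stalk, had 1927 CPM with 3% PEGDA, against 909 CPM in PF (2.12-fold, 2.08 to 2.16), a call that ended when libraries were scaled by total counts alone. RPL41, RPS15A and RPL17 were 3.27-, 3.13- and 3.59-fold higher. The PF+2%PEGDA EPCaT and the 2D coculture had 299 CPM and 164 CPM of RPL39, so the PF EPCaT was the lowest of the 4 libraries for it. Against 2% PEGDA 0 of the 79 passed the rule in either direction, with a median of -0.06. With the trend of length and GC content removed 22 of the 79 were higher (median 0.73), and with exon number removed as well 28 (median 0.90). At least 50% of the 50-mers of 16 of these genes, RPL36A, RPS27 and RPL17 among them, also occur in another gene such as a processed pseudogene, and their split is uncertain.

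Of 44 mitochondrial ribosomal proteins and 36 translation factors, 0 passed the rule (medians 0.31 and 0.22). EEF1A1, the factor that brings tRNA to the ribosome and an abundant member, had 4113 CPM with 3% PEGDA, against 2213 CPM in PF, a 1.86-fold difference (1.83 to 1.88) that lay just inside the limit. Among 39 subunits of respiratory complexes II to V, 3 were higher (ATP5MC2 at 2.15-fold, COX7B at 2.06-fold and ATP5ME at 2.04-fold), with a median of 0.45. Among 38 of complex I 1 was higher, NDUFA4 at 2.38-fold (2.18 to 2.60). These shares were 7.69% and 2.63%, against 3.59% of all genes. NDUFA4 counts among complex I by its name and is known to sit in complex IV. With the trend of length and GC content removed, the medians were 0.09 for mitochondrial ribosomal proteins, 0.15 for translation factors, 0.07 for complex I and 0.23 for complexes II to V, where 1 gene was then higher. Against 2% PEGDA the medians of these lists lay between -0.07 and -0.03, and COX7B and ATP5ME lost their call under total counts.

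Cells low in membrane cholesterol release the SREBP factors, which switch on the enzymes from acetyl-CoA to cholesterol, the LDL receptor and INSIG1, which brakes the same factors. Of 25 measured, 4 were higher with 3% PEGDA (16%, against 3.59% of all genes) and 0 lower. Of the 25, 24 had a ratio above 1 (median 0.76). MSMO1, a sterol C4-methyl oxidase, had 224 CPM in the PF+3%PEGDA EPCaT, against 81.1 CPM in the PF EPCaT (2.77-fold higher, 2.59 to 2.95). INSIG1 had 235 CPM with 3% PEGDA, against 93.4 CPM in PF (2.51-fold, 2.37 to 2.67). CYP51A1, the lanosterol demethylase, was 2.23-fold higher (2.12 to 2.34) but shares 88.9% of its 50-mers with other genes. The PF+2%PEGDA EPCaT lay between both gels for these genes, with 154 CPM of MSMO1 and 170.3 CPM of INSIG1. Against 2% PEGDA 0 of the 25 passed the rule, but the median was 0.29.

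SCD, the desaturase that makes oleate, had 2116 CPM with 3% PEGDA, against 1023 CPM in PF (2.07-fold higher, 2.03 to 2.11). FABP4, a fatty acid carrier, had 116 CPM with 3% PEGDA, against 56.0 CPM in PF. SCD and FABP4 were the 2 higher genes among 27 of fatty acid synthesis and storage. PLIN5, a lipid droplet coat, was the 1 lower gene, at 2.83-fold. These shares were 7.41% higher and 3.70% lower, against 3.59% and 7.50% of all genes. Both SCD and FABP4 lost their call under total counts. ACADVL, which starts the oxidation of long fatty acids, had 99.6 CPM with 3% PEGDA, against 257 CPM in PF (2.58-fold lower, 2.42 to 2.74), and UCP2, an inner membrane carrier of mitochondria, was 2.38-fold higher (2.15 to 2.65). ACADVL overlaps DLG4. Of 8 listed genes of cholesterol export 7 were measured, and ABCG1, a sterol exporter, was 2.03-fold lower.

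Metallothioneins are small proteins that bind zinc and copper, and their genes are switched on by the zinc sensor MTF1 at metal response elements (MREs). The 250 bases before MT1X and MT2A (RefSeq, GRCh38.p14, plus strand) are shown because these were the higher genes of the list whose promoter has an entry, with the core element TGCACNC or TGCGCNC, on either strand, in capitals.
MT1X (chr16:56682220-56682469): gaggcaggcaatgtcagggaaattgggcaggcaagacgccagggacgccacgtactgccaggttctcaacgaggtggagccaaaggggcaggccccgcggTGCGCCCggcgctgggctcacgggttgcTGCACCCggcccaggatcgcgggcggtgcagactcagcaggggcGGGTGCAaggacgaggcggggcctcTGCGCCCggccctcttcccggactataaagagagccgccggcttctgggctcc
MT2A (chr16:56608334-56608583): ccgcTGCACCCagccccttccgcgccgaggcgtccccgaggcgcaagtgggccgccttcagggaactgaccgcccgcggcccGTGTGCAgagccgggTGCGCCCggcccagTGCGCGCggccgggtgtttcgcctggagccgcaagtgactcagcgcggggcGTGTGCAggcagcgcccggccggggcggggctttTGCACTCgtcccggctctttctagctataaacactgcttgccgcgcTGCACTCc

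The stretch before MT1X holds 4 matches and that before MT2A 7, while 5069 of 16255 promoters (31.2%) hold at least 1. MT1X had 37.2 CPM in the PF+3%PEGDA EPCaT, against 6.83 CPM in the PF EPCaT (5.45-fold higher, 4.44 to 6.74). MT2A, the most abundant member, had 183 CPM with 3% PEGDA, against 48.5 CPM in PF (3.78-fold, 3.49 to 4.10). MT1F had 4.53 CPM with 3% PEGDA, against 2.10 CPM in PF (2.16-fold, 1.41 to 3.37). In each of these 3 genes the PF+2%PEGDA EPCaT lay between the other gels, at 21.8, 124 and 2.96 CPM, and the 2D coculture above all gels, at 57.9, 570.0 and 9.45 CPM. They were 3 of 9 measured genes of metallothioneins and zinc transport (33.3%, against 3.59% of all genes), out of 17 listed. Against 2% PEGDA 0 of the list passed the rule (median 0.30). MT1X shares 45.1% of its 50-mers with other genes.

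Among 23 targets of NRF2, the factor of the oxidant response, 4 were higher (17.4%, against 3.59% of all genes) and 0 lower. The median was 0.36, and 0.06 against 2% PEGDA, where 0 passed. HMOX1, the heme oxygenase that frees iron, had 125 CPM with 3% PEGDA, against 42.7 CPM in PF (2.92-fold, 2.68 to 3.20), with 68.2 CPM at 2% PEGDA. FTL, the ferritin light chain that stores iron, had 1367 CPM with 3% PEGDA, against 505 CPM in PF (2.71-fold, 2.64 to 2.78). AKR1C3, a steroid and prostaglandin reductase, and TXN, thioredoxin, were 2.57- and 2.02-fold higher, the call of TXN ending under total counts. GPX4, which detoxifies lipid peroxides, had 333 CPM with 3% PEGDA, against 155 CPM in PF (2.15-fold higher, 2.05 to 2.26). It was the 1 gene past the rule among 20 of peroxide removal (5%, against 3.59% of all genes). NPC2, the lysosomal cholesterol carrier, was 2.68-fold higher (2.50 to 2.87) and the 1 called among 28 genes of lysosome and autophagy, a share like the 3.59% of all genes.

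**Figure D3:**
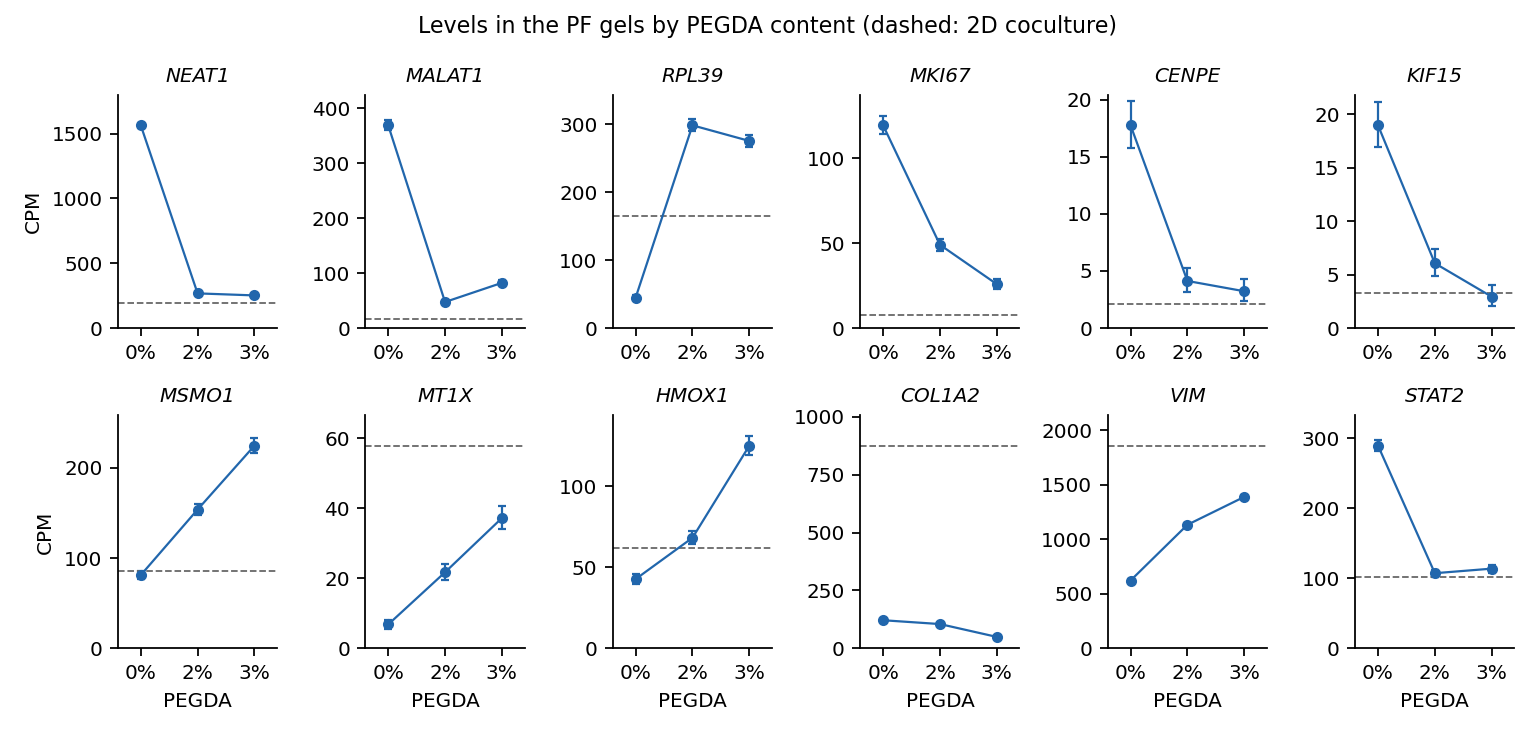
Each panel gives the CPM of 1 gene in the PF EPCaT (0%), the PF+2%PEGDA EPCaT and the PF+3%PEGDA EPCaT, with exact 95% Poisson intervals of the count as bars, and a dashed line for the 2D coculture. MSMO1, MT1X, HMOX1, VIM and MKI67 change in order over the 3 gels, while NEAT1, RPL39 and STAT2 with 2% PEGDA lie near their values with 3% (267, 299 and 107 CPM).

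Collagens form the fibres and sheets of the matrix and fibroblasts are a main source of them. Of 27 collagens measured (32 listed), 11 were lower and 1 higher (COL8A2, named after its value was seen), with a median of -0.61, against 7.50% lower and 3.59% higher over all genes. COL5A2, a fibrillar chain that starts fibrils, had 177 CPM in the PF+3%PEGDA EPCaT, against 512 CPM in the PF EPCaT (2.90-fold lower, 2.77 to 3.03), with 200.1 CPM at 2% PEGDA. COL1A2, a chain of type I collagen, had 49.4 CPM with 3% PEGDA, against 121 CPM in PF (2.46-fold, 2.25 to 2.68), with 105 CPM at 2% PEGDA. COL1A1, its partner chain, did not pass the rule, with 246 CPM with 3% PEGDA against 307 CPM in PF (1.25-fold, 1.20 to 1.31). COL27A1, COL7A1 and COL4A6, a cartilage, an anchoring and a basement membrane chain, were 6.48-, 4.47- and 4.24-fold lower. Against 2% PEGDA 6 of the 27 were lower and 0 higher (median -0.41). The median collagen has 51 exons, and with the trend of length, GC content and exon number removed 6 were lower, COL1A2 and COL5A2 no longer among them, and the median turned to 0.03.

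Of 22 fibroblast markers measured (24 listed), 3 were lower (COL1A2, COL5A2 and SULF1) and 1 higher (TBX15, at 14 counts with 3% PEGDA against 5 in PF). These shares were 13.6% and 4.55%, against 7.50% lower and 3.59% higher over all genes. The median of the markers was -0.34, or 0.09 with that trend removed. Their summed level was 1186 CPM with 3% PEGDA and 1715 CPM in the PF EPCaT, with 1480 CPM at 2% PEGDA and 5280 CPM in 2D. Of 26 epithelial markers measured (28 listed) 0 passed the rule (median -0.06), and their sum was 9431 CPM with 3% PEGDA and 8651 CPM in PF. CDH1, the gene of E-cadherin, had 375 CPM with 3% PEGDA, against 421 CPM in PF. KRT19, a keratin, had 1763 CPM with 3% PEGDA, against 1247 CPM in PF. VIM, the intermediate filament of fibroblasts and of mesenchymal cancer cells, was higher, at 1390.0 CPM with 3% PEGDA against 623 CPM in PF (2.23-fold, 2.18 to 2.29), with 1134 CPM at 2% PEGDA, and overlaps VIM-AS1. CTNNA1, the gene of alpha-catenin, known to be deleted in PC-3, had 8.26 CPM with 3% PEGDA, against 5.39 CPM in PF, and did not pass the rule. Of 15 markers of endothelial and blood cells 6 were measured and 0 passed; KDR and PECAM1 were at 226 and 86.2 CPM with 3% PEGDA and at 154 and 65.4 CPM in PF. Whether the share of fibroblasts differed between the gels was not tested.

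LOX, the lysyl oxidase that joins collagen chains, had 69.0 CPM with 3% PEGDA, against 26.2 CPM in PF (2.63-fold higher, 2.35 to 2.96), with 53.5 CPM at 2% PEGDA. MMP3, a matrix protease, had 15.2 CPM with 3% PEGDA, against 5.09 CPM in PF (2.99-fold, 2.31 to 3.89), with 5.66 CPM at 2% PEGDA. These were the 1 higher gene each among 21 of matrix crosslinking, where 4 others were lower, and 18 of metalloproteinases and inhibitors, where 0 were lower. The higher shares were 4.76% and 5.56%, near the 3.59% of all genes. The lower share in matrix crosslinking was 19.05%, against 7.50% of all genes. LAMA5, a laminin chain of basement membrane, was 2.30-fold lower (2.21 to 2.39). Of 15 laminin and basement membrane genes, 3 were lower (20%, against 7.50% of all genes) and 0 higher. With the trend of length, GC content and exon number removed, 0 of the 15 were lower and 1 was higher. Both LOX and MMP3 overlap another gene, SRFBP1 and WTAPP1.

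Cells on stiff supports are known to engage integrins, pull through actin and send YAP and TAZ to the nucleus. Of 34 integrin and focal adhesion genes 1 was lower (2.94%) and 0 higher (median -0.01). Of 26 YAP and TAZ targets 1 was lower (3.85%) and 0 higher (-0.08), and of 22 contractile and SRF targets 3 were lower (13.6%) and 0 higher (-0.16). Over all genes 7.50% were lower and 3.59% higher. ITGB1, the common integrin partner, had 1330.2 CPM with 3% PEGDA, against 1198 CPM in PF. YAP1 had 228 CPM with 3% PEGDA, against 204 CPM in PF. TPM2, a tropomyosin of contractile fibres, was lower, at 4.75 CPM with 3% PEGDA against 21.1 CPM in PF (4.44-fold, 3.40 to 5.88), with 5.92 CPM at 2% PEGDA. Of 18 mechanosensitive channels and lamina genes, 1 was higher (5.56%) and 2 were lower (11.1%). TRPV4, a calcium channel opened by stretch and swelling, was 2.10-fold higher (1.49 to 3.00). SYNE2, a giant linker of nucleus and actin, and LMNB2, a lamin, were 2.70- and 2.16-fold lower. TRPV4 lost its call under total counts.

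Oxygen and sugar lists also held few calls: 1 of 28 hypoxia genes was higher (LOX, median 0.36) and 1 of 20 glycolysis genes (ALDOC, an aldolase, at 2.07-fold, median 0.35), with 0 lower in either, near the background of 3.59% higher. ALDOC lost its call under total counts. SLC2A1, the glucose carrier GLUT1, had 1004 CPM with 3% PEGDA, against 955 CPM in PF. GAPDH had 3947 CPM with 3% PEGDA, against 2256 CPM in PF, and ACTB, beta-actin, 4423 CPM with 3% PEGDA, against 2982 CPM in PF. Neither of these common reference genes passed the rule. Of 16 listed reference genes, 2 (B2M and RPLP0) were higher (12.5%, against 3.59% of all genes) and 0 lower. The median of that list was 0.36, with 10 ratios above 1 and 6 below. Among 33 interferon-stimulated genes, 2 were lower, XAF1 (3.55-fold, 2.88 to 4.41) and STAT2 (2.54-fold, 2.40 to 2.69), a share under the 7.50% of all genes. The median of the list was -0.25 but 0.42 over the PF+2%PEGDA EPCaT, which had 5.47 CPM of XAF1 and 107 CPM of STAT2. B2M, the light chain of MHC class I, had 2618 CPM with 3% PEGDA, against 1193 CPM in PF (2.19-fold higher, 2.16 to 2.23), with 1872 CPM at 2% PEGDA. Among 24 inflammatory and NF-kB targets 3 were higher (12.5%) and 2 lower (8.33%), against 3.59% and 7.50% of all genes (median 0.07). The chemokine gene CXCL8 was 2.68-fold higher (2.38 to 3.04), while the chemokine genes CXCL2 and CCL5, at 0.878 and 0.439 CPM with 3% PEGDA against 3.00 and 1.32 CPM in PF, were 3.41- and 3.00-fold lower. AREG, an EGF receptor ligand, was 2.15-fold lower (1.87 to 2.48). Heat shock, p53, Notch, Wnt, ERK feedback, proteasome, androgen-linked and BCL2 family lists had 0 calls.

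Among the 15 lowest genes with at least 5 CPM were 3 loci classed here as read-through, which join neighbouring genes into 1 transcript (CHKB-CPT1B, MSH5-SAPCD1 and BCL2L2-PABPN1). STAG3L5P-PVRIG2P-PILRB and ABCF2-H2BE1, whose names also join genes, were 9.67- and 11.3-fold lower. They are not among the 73 read-through loci counted below. The read-through locus BIVM-ERCC5 was among the 15 highest, at 6.53-fold higher. CHKB-CPT1B had 0 counts with 3% PEGDA, against 10.2 CPM in PF, with 0.901 CPM at 2% PEGDA. With that 0 set to a floor of 3 counts CHKB-CPT1B was 46.4-fold lower, and its exact 95% interval begins at 37.4-fold. FER1L4, a transcribed pseudogene with 45 exons, had 14.9 CPM with 3% PEGDA, against 150.0 CPM in PF (10.1-fold lower, 8.71 to 11.7), with 22.5 CPM at 2% PEGDA and 4.93 CPM in 2D. GOLGA8A and GOLGA8B, near-identical golgin copies, were 6.40- and 7.20-fold lower, with a split between them that is uncertain. NEAT1, the scaffold of nuclear paraspeckles (GRCh38 chromosome 11, 65422798 to 65445540), had 251 CPM with 3% PEGDA, against 1563 CPM in PF (6.22-fold lower, 6.00 to 6.45), with 267 CPM at 2% PEGDA and 196 CPM in 2D. MALAT1, an RNA of nuclear speckles, had 82.1 CPM with 3% PEGDA, against 369 CPM in PF (4.49-fold, 4.21 to 4.79), with 47.3 CPM at 2% PEGDA. It overlaps its antisense RNA TALAM1. The precursor of ribosomal RNA, counted alike under the copies RNA45SN1 and RNA45SN5, was 5.98-fold lower (5.56 to 6.43). In the lower genes just given, apart from ABCF2-H2BE1 (16.2 CPM in 2D against 12.3 CPM in PF), the PF EPCaT was the highest of the 4 libraries.

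The share of calls differed by class of gene. Of 790 long non-coding RNAs 21.1% were lower and 6.08% higher, of 340 transcribed pseudogenes 27.1% were lower and 10.0% higher, and of 73 read-through loci 24.7% were lower and 9.59% higher, against 6.02% lower and 3.19% higher among 13089 protein-coding genes. Among 16 nuclear long non-coding RNAs measured, 4 were higher and 5 lower, and the higher ones included host RNAs of small nucleolar RNAs: ZFAS1 was 2.21-fold higher (1.99 to 2.45), and EPB41L4A-AS1 2.50-fold (2.10 to 2.99). With the trend of length and GC content removed 1 of the 16 was higher and 5 lower. Of 22 SR splicing factors and CLK kinases 4 were lower (18.2%, against 7.50% of all genes) and 0 higher (median -0.62, but -0.06 over 2% PEGDA). LUC7L3, a splicing factor, had 55.3 CPM with 3% PEGDA, against 152 CPM in PF (2.75-fold lower, 2.54 to 2.99), with 56.2 CPM at 2% PEGDA. CLK2, a kinase of SR proteins, was 2.27-fold lower (2.02 to 2.55).

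The highest genes were CERS6-AS1 and SFT2D3. CERS6-AS1, an antisense RNA, had 27.1 CPM with 3% PEGDA, against 0.240 CPM in PF (113-fold, 43.7 to 416). SFT2D3 had 9.44 CPM with 3% PEGDA, against 0 counts in PF. With that 0 set to a floor of 3 counts SFT2D3 was 52.5-fold higher, and its exact 95% interval begins at 42.1-fold. CERS6-AS1 overlaps CERS6 and SFT2D3 overlaps WDR33, and CERS6-AS1 had 13.7 CPM at 2% PEGDA and 19.2 CPM in 2D. SFT2D3 had 0.386 CPM at 2% PEGDA and 0.411 CPM in 2D, so the PF+3%PEGDA EPCaT alone was high for it. UTS2, the vasoactive peptide urotensin 2, had 17.04 CPM with 3% PEGDA, against 1.08 CPM in PF (15.8-fold, 9.78 to 27.1), with 13.1 CPM at 2% PEGDA and 0 counts in 2D. TUBA1A, an alpha-tubulin, had 268 CPM with 3% PEGDA, against 57.2 CPM in PF (4.69-fold, 4.37 to 5.04), with 182 CPM at 2% PEGDA and 63.4 CPM in 2D. EDARADD, an adaptor of the ectodysplasin receptor, was 5.22-fold higher (3.97 to 6.95).

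The ratio varied with the structure of the transcript. The median log2 ratio was 0.04 for genes with 1 exon, 0.20 for 4 to 5 exons, -0.35 for 21 to 40 and -0.61 for more than 40, where 25.5% of 259 genes were lower. By length it was 0.46 up to 500 bases, where 30.4% of 69 genes were higher, and -0.31 above 12000 bases. The PF+3%PEGDA EPCaT over the PF+2%PEGDA EPCaT gave medians between 0.03 and -0.10 across the exon bins. With the trend of length, GC content and exon number removed, 445 genes were higher and 881 lower. Of the genes named above, POLE, COL1A2, COL5A2, LAMA5, SYNE2, LMNB2, CLK2, ABCG1, SCD, FABP4, TXN, MT1F, COX7B and ATP5ME no longer passed the rule then, and RPLP0, B2M, GPX4 and ZFAS1 no longer passed it with length and GC content alone removed. Of all tested genes 29.1% overlap another annotated gene, of the higher ones 26.7% and of the lower ones 37.6%.

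**Figure D4:**
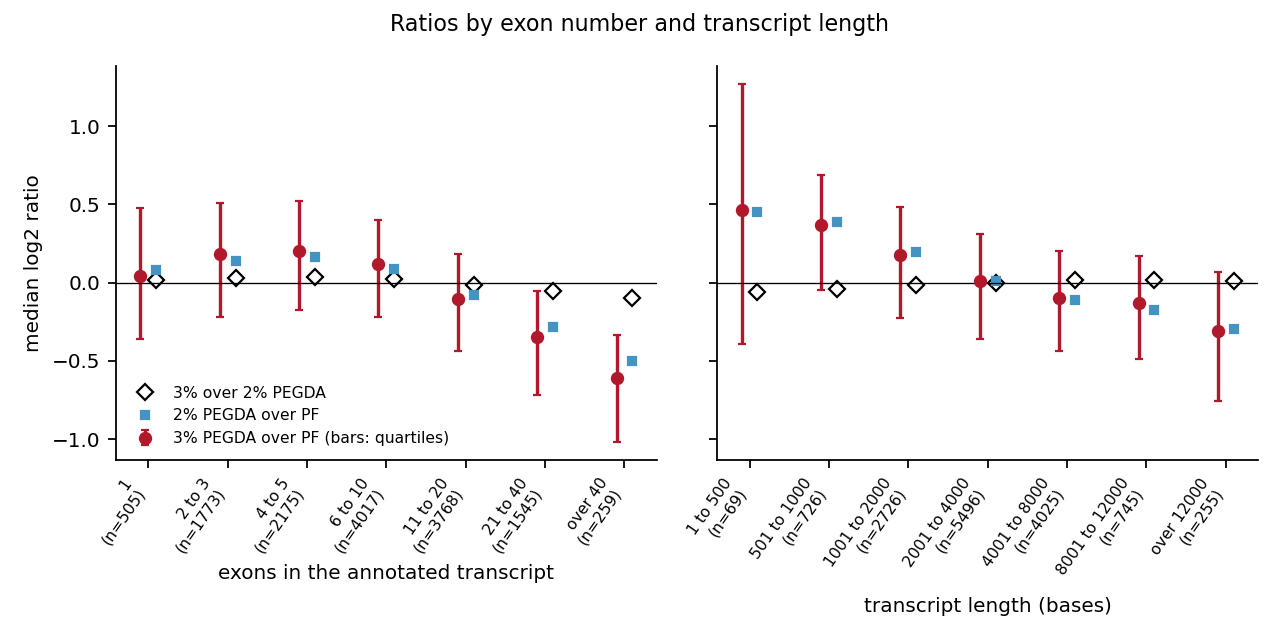
Median log2 ratios by number of exons and by transcript length in bases, with quartile bars for the PF+3%PEGDA EPCaT over the PF EPCaT (red), and medians for 3% over 2% PEGDA (diamonds) and 2% PEGDA over PF (squares). Both ratios over the PF EPCaT decline to -0.61 and -0.50 above 40 exons, while 3% over 2% PEGDA stays between 0.03 and -0.10.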

How the data were processed

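Bulk RNA was sequenced from 3 gels and a 2D coculture, with 1 library per group. Per the submitters' processing notes the processing used FastQC, STAR, Partek and the hg38 build; the counting method and annotation are not given in the sources used here. The authors deposited estimated counts per gene that need not be whole; they were rounded here, and TMM factors over the 4 libraries (edgeR 4.0.16, R 4.3.3) gave CPM. The log2 ratio used a prior count of 0.5. Ratios have exact Clopper-Pearson 95% intervals for counting error only, and a library at 0 counts was set to a floor of 3 counts. The calling script was tested on simulated data. Intervals came from scipy 1.17.1, tables from pandas 2.3.3 and numpy 2.4.6, and plots from matplotlib 3.10.9, all in Python 3.11.15. Coordinates, overlaps and promoters came from RefSeq (GRCh38.p14), and length, GC content, exons and shared 50-mers from GENCODE 29.

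The genes compared and the 65 gene lists were chosen with earlier results of these data known. Named genes were, from 5 CPM upward in either library, the 15 highest and 15 lowest by the interval bound nearest to no change; up to 6 members of each list past the rule or, where fewer than 2 passed, up to 4 of its most abundant members; and a fixed set (MKI67, CTNNA1, VIM, CDH1, COL1A1, ACTB, GAPDH). Some genes that the rule names are not reported here. Mitochondrially encoded genes were not analysed here. Alternatives were DESeq2 1.42.0 size factors, other scalings, filters, fold limits and priors, and removal of trends by loess (span 0.4).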

Additional observations from a re-analysis of the deposited data

How the results depend on the processing

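With DESeq2 size factors 526 genes were higher and 1055 lower, with total counts 403 and 1292, without the filter on CPM 635 and 1307, and without genes sharing 50-mers 455 and 948; all of these lay within 1.5 times of 516 and 1079. The counts moved further with a minimum of 5 CPM (258 higher, 622 lower), with a 4-fold limit (83 higher, 258 lower) and with a 1.5-fold limit (1572 higher, 2246 lower), each by construction. Removing the trend with length and GC content gave 416 higher and 982 lower and ended the call of 22 named genes. Removing the trend with length, GC content and exon number together, an alternative chosen after the data were seen, ended 31 such calls and turned the median of collagens to 0.035 and that of fibroblast markers to 0.0901; the cause was not tested. Of 62 list medians, 4 moved by over 0.25 in the first of these and 5 in the second, beside those that turned. Total counts moved the median of all genes to -0.10 and ended 12 calls of named genes, and the other scalings ended at most 2. No paired analysis was possible because there was 1 library per group. The spread between cultures is unknown, and genes of few counts have wide intervals.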

Other observations

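Several lists not described above also held calls. All 31 giant chromatin regulators had a ratio below 1 (median log2 ratio -0.69, and -0.16 over the PF+2%PEGDA EPCaT), and 2 (6.45%, against 7.50% of all genes) were lower. The median was -0.39 with the trend of length and GC content removed and -0.22 with exon number removed as well, where 0 were lower. KMT2D, a histone methyltransferase, had 88.7 CPM with 3% PEGDA, against 207 CPM in PF (2.33-fold lower), and CHD7, a chromatin remodeller, had 6.44 CPM with 3% PEGDA, against 13.5 CPM in PF (2.10-fold lower). Both calls ended with the trend of length and GC content removed. Among 24 genes of TGF-beta and BMP signals 2 were higher (8.33%, against 3.59% of all genes) and 0 lower. BMP2, a bone morphogenetic ligand, had 4.46 CPM with 3% PEGDA, against 1.68 CPM in PF (2.66-fold higher). GREM1, a secreted BMP inhibitor, had 7.02 CPM with 3% PEGDA, against 3.06 CPM in PF (2.30-fold higher). NRG1, a ligand of the EGF receptor family, had 3.80 CPM with 3% PEGDA, against 1.44 CPM in PF (2.64-fold higher), with 1.09 CPM at 2% PEGDA.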
